A study of Mus musculus with 4 samples.

Results

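The genes described here encode subunits of Polycomb repressive complex 1 (PRC1). They were listed by name, with earlier results of these data known. The list held 9 genes: the chromobox genes Cbx2, Cbx6, Cbx7 and Cbx8, the RING genes Ring1 and Rnf2, the PCGF genes Bmi1 and Pcgf2, and Phc1. Of these, 8 were measured by a probe set with a single gene symbol, among 22180 genes so measured in all. Cbx6 was annotated only on a probe set that also carried the symbols of its neighbours, so no value is given for it. RNA came from cells grown out of mammary tumours of the MMTV-NIC model (female mice of the FVB strain), in which the mammary MMTV promoter drives an activated ErbB2 and Cre recombinase from a shared transcript. Cells received GSK126 (named GSK-126 in the labels) at 2 µM for 96 h (2 arrays) or the vehicle DMSO for 96 h (2 arrays), and all carried the transgene. The labels do not say whether replicates were separate cultures or separate lines, so p-values rest on the spread of these 4 arrays alone, and that spread may be technical.

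PRC1 places ubiquitin on the tail of histone H2A through a RING subunit, Ring1 or Rnf2, which works as a pair with a PCGF protein. In canonical PRC1 the PCGF protein is Bmi1 or Pcgf2, a chromobox protein reads the H3K27me3 mark placed by the EZH2 enzyme of PRC2, and a Phc protein links complexes into larger assemblies. Variant complexes carry other PCGF proteins with Rybp or Yaf2 and reach chromatin without reading H3K27me3. GSK126 inhibits EZH2, so the comparison asks whether cells treated with the inhibitor differed in the messenger RNA of the complex that reads the mark.

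Polycomb complexes in mammals gather at CpG-rich promoters, and the members' own promoters are shown for that reason. In RefSeq promoter windows (GRCm38.p6), 8 of the 9 listed genes matched a window, and the 250 bases upstream of the start site were searched for the dinucleotide CG. Ring1 held 30 CG, a number that 5.94% of the 32851 windows reached, and Cbx7, Cbx8, Bmi1, Cbx6 and Rnf2 held 23, 22, 21, 20 and 20. Phc1 held 8 and Pcgf2 held 5, against a median of 6 over all windows. The most CpG-rich window, that of Ring1 (chr17:34024681-34024930, minus strand), is printed with those of Bmi1 (chr2:18676768-18677017, plus strand), its paralog Pcgf2 (chr11:97699649-97699898, minus strand) and Phc1 (chr6:122340228-122340477, minus strand). Each reads 5′ to 3′ toward the start site, with CG in capitals.
Ring1: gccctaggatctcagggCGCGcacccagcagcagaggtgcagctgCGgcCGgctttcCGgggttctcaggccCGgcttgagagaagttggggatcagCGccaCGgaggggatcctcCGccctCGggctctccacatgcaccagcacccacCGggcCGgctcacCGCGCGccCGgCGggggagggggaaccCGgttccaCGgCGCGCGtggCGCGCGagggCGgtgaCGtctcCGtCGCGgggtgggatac
Bmi1: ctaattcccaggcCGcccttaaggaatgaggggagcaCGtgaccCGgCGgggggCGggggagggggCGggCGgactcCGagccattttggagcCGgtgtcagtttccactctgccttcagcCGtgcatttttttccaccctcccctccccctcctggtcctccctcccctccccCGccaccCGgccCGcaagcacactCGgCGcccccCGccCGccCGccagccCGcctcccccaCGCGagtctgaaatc
Pcgf2: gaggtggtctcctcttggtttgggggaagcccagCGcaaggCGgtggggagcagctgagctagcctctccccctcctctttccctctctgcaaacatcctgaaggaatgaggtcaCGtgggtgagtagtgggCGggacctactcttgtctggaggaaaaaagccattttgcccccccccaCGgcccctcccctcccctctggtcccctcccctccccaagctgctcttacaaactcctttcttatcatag
Phc1: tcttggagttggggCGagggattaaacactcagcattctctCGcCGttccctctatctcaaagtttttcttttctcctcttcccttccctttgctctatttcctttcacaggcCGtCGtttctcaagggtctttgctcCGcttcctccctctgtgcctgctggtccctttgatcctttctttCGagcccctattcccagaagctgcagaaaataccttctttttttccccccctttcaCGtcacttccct
The paralogs Bmi1 and Pcgf2 thus differed in CG content. The palindromic hexamer CACGTG, searched after these sequences had been read, lay in 4 of the 8 windows (Bmi1, Pcgf2, Cbx8 and Cbx6), and 6.02% of all windows held it. Bmi1 and Pcgf2 were among the sequences read. The hexamer also contains a CG, and the members' windows held more CG (median 20.5) than all windows (median 6). All windows are therefore not a like background, and no enrichment is read from these shares. A match describes the letters and is no evidence of a bound factor. In the RefSeq gene table, Cbx2 and Cbx8 lie next to each other on chromosome 11 with 0 annotated genes between them, and Cbx6 and Cbx7 lie on chromosome 15 with 2 genes between them.

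No measured PRC1 subunit passed the threshold between GSK126 and DMSO. A change is the mean log2 signal with GSK126 minus that with DMSO, tested with limma and adjusted over all 22180 genes (Benjamini-Hochberg), with a threshold of 0.05. The count of members past it was 0 of 8, where 0.433% of all genes passed (96 genes, 0.261% higher and 0.171% lower). By unadjusted p under 0.05 the count was also 0 of 8, where 10.6% of all genes stood (4.64% higher and 5.93% lower). The members' changes ran from -0.27 (Phc1) to 0.14 (Bmi1) with a median of -0.06, and the median over all genes was -0.01. None of the 8 intervals at 95% reached a log2 change of 1 in either direction. The lowest bound was -0.57 (Phc1), a 1.49-fold lower level, and the highest was 0.61 (Bmi1), a 1.53-fold higher level. Intervals are per gene and not adjusted for their number. They draw on 2 residual and 5.57 prior degrees of freedom, so most of each variance estimate is borrowed from other genes. For Bmi1 the standard error was 0.20, although its treated replicates had a standard deviation of 0.47. Its bounds therefore rest on the borrowed part and not on its own arrays alone.

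**Figure D1:**
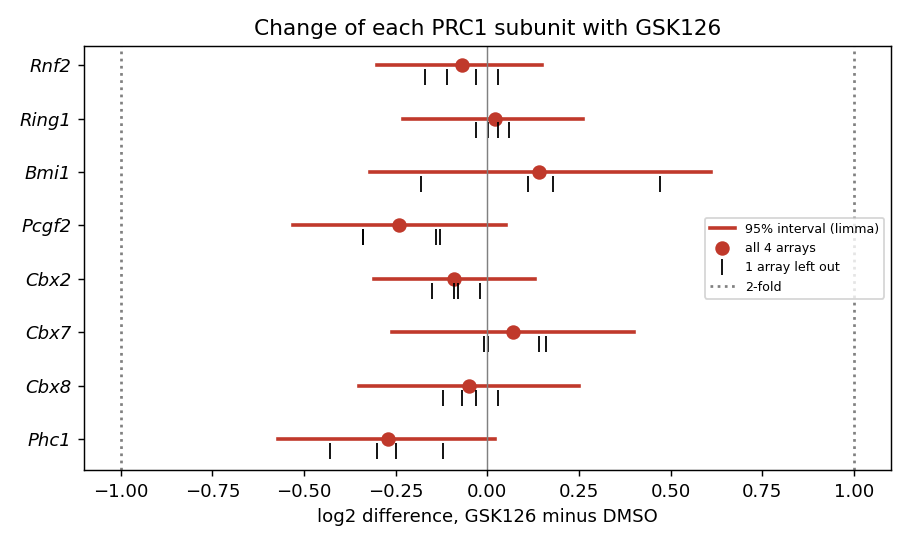
Log2 difference between GSK126 and DMSO (x axis) for the 8 measured PRC1 subunits (rows). Points are the difference over all 4 arrays, red lines the 95% limma interval, black ticks the difference with 1 array left out, and dotted lines mark a 2-fold change. Every red line crosses 0 and ends short of the dotted lines, and the ticks of Bmi1 spread from -0.18 to 0.47.

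The 4 arrays correlated with each other at 0.981 to 0.988 over all probe sets. The GSK126 arrays correlated with each other at 0.981, and GSK126 replicate 1 stood closer to the vehicle arrays (0.987 and 0.986). As a check of the labelled source, 7 of 8 epithelial markers (among them Epcam, Krt8 and Krt18) were above the level that 40% of genes fall below, a log2 signal of 4.77. Signals below it are called dim. Of markers for other cell types, 6 of 7 immune, 5 of 6 endothelial, 4 of 5 adipocyte and 3 of 8 fibroblast markers were dim. The mean log2 signal of the fibroblast list was 4.90 and 4.79 in the GSK126 arrays and 4.81 and 4.70 in the DMSO arrays, and these ranges overlapped. At an unadjusted p under 0.05 in limma, 2 of 8 fibroblast markers were higher with GSK126 (Pdgfra by 0.45 and Thy1 by 0.35). So was 1 of 5 adipocyte markers (Fabp4, dim in both groups), and 1 of 8 epithelial markers was lower (Cldn7). Over all genes 4.64% were higher and 5.93% lower by that measure. The epithelial list averaged 9.74 and 9.72 in the GSK126 arrays, against 9.78 and 9.87 in the DMSO arrays. The immune list averaged 4.10 and 4.09 with GSK126, against 4.18 and 4.24 with DMSO. For the epithelial and the immune list these ranges did not overlap, and both lists were lower with GSK126. The part of these markers in the members' values was not tested. For all genes, fewer cells holding a transcript and less transcript per cell cannot be told apart in bulk RNA.

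The RING subunits carry the ligase activity, and both sat within their replicate spread. Rnf2 (RING1B) is the RING protein on which mouse embryonic development depends. It had a log2 signal of 8.73 and 8.93 in the GSK126 arrays, against 8.86 and 8.94 in the DMSO arrays. The groups overlapped, and the change was -0.07 (95% interval -0.30 to 0.15, adjusted p = 0.863 in limma). Ring1 (RING1A), its paralog, had 6.64 and 6.67 with GSK126, against 6.68 and 6.59 with DMSO. The change was 0.02 (95% interval -0.23 to 0.26, adjusted p = 0.981 in limma), and 92.1% of all genes had a larger absolute change. The change of Ring1 was -0.04 once arrays had been centred on their medians.

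Among the 8 members, the PCGF gene Bmi1 had the widest gap between treated replicates. Bmi1 (PCGF4), known for holding back the Ink4a/Arf locus and for its role in stem cell renewal, had 6.84 and 6.18 with GSK126, against 6.33 and 6.40 with DMSO. One treated array lay above both DMSO arrays and the other below both. The GSK126 replicates of Bmi1 lay 0.66 apart, whereas its DMSO replicates lay 0.07 apart. The change was 0.14 (95% interval -0.32 to 0.61, adjusted p = 0.870 in limma). It was -0.18 without GSK126 replicate 1 and 0.47 without GSK126 replicate 2, so its sign rested on a single array.

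Pcgf2 (MEL18), the PCGF protein that can take the place of Bmi1, had 6.76 and 6.55 with GSK126, against 6.99 and 6.79 with DMSO. Both treated values lay below both vehicle values, by a margin smaller than the gap between replicates of either group (0.21 for GSK126 and 0.20 for DMSO). The change was -0.24 (95% interval -0.53 to 0.05, adjusted p = 0.555 in limma). It ranged from -0.34 to -0.13 when single arrays were left out.

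**Figure D2:**
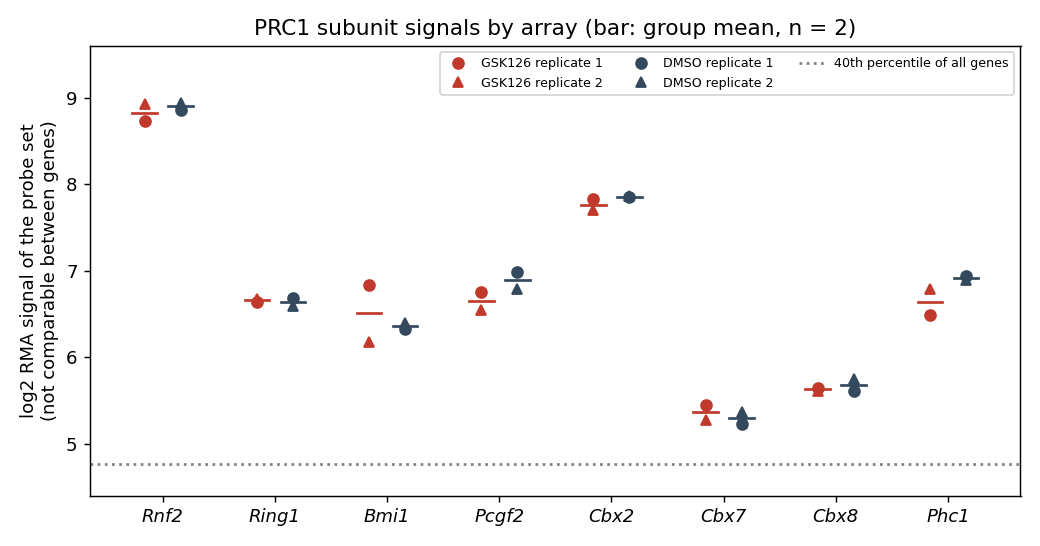
Log2 RMA signal (y axis) of the 8 measured PRC1 subunits (x axis) in each GSK126 array (red, left) and DMSO array (dark, right). Circles are replicate 1, triangles replicate 2, short bars group means (n = 2), and the dotted line is the dim limit of 4.77. All 8 genes lie above that limit, and only Cbx2, Pcgf2 and Phc1 have both treated values below both vehicle values.

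The chromobox subunits, which read H3K27me3, showed no separation beyond replicate spread. Cbx2 had 7.83 and 7.70 with GSK126, against 7.85 and 7.86 with DMSO, a change of -0.09 (95% interval -0.31 to 0.13, adjusted p = 0.814 in limma). Both treated values of Cbx2 were the lower ones, the nearer by less than the treated replicates differed from each other (0.13). Cbx7, whose product represses the Ink4a/Arf locus, had 5.45 and 5.28 with GSK126, against 5.23 and 5.37 with DMSO. Its groups overlapped, with a change of 0.07 (95% interval -0.26 to 0.40, adjusted p = 0.920 in limma). Cbx8 had 5.65 and 5.61 with GSK126, against 5.61 and 5.75 with DMSO, and the change was -0.05 (95% interval -0.35 to 0.25, adjusted p = 0.950 in limma). Its groups overlapped as well.

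Phc1, a polyhomeotic subunit whose SAM domain joins complexes to each other, gave the most negative change of the list. It had 6.49 and 6.79 with GSK126, against 6.94 and 6.89 with DMSO, so both treated values were lower. The gap between the treated replicates (0.31) exceeded the difference of the means, and the change was -0.27 (95% interval -0.57 to 0.02, adjusted p = 0.508 in limma). Of all genes, 17.2% had a larger absolute change. Without GSK126 replicate 1 the change of Phc1 was -0.12, and without GSK126 replicate 2 it was -0.43.

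In all, 3 of the 8 members (Cbx2, Pcgf2 and Phc1) had groups that did not overlap, each lower with GSK126. Over all genes 40.1% of groups did not overlap, 21.8% being lower with GSK126. A lower mean with GSK126 was found for 5 of 8 members, where 52.0% of all genes had one. Apart and higher with GSK126 stood 0 of 8 members, where 18.2% of all genes did. With 8 genes, a departure from these shares cannot be judged, and none is read from the counts.

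Which paralog supplies most of the transcript could not be read from these arrays. A probe set's signal depends on how well its own probes bind as well as on transcript level, so signals of different genes were not ordered. All 8 measured genes, including the chromobox genes Cbx2, Cbx7 and Cbx8 and the PCGF genes Bmi1 and Pcgf2, were above the dim limit in both groups. Cbx7 (5.23 to 5.45) and Cbx8 (5.61 to 5.75) stood nearest to that limit of 4.77. By group mean the fibroblast marker Col1a1 lay above both (5.93 with GSK126 and 6.06 with DMSO), and the other fibroblast markers lay below both. Whether the signals of Cbx7 and Cbx8 exceed background was not tested, so a small change there may say little about transcript. What the arrays do allow is whether the balance of a paralog pair differed between treatments, since both probe sets are read on the same array and a shift of the whole array cancels.

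The balance was computed for 3 pairs, each as a log2 ratio per array with an exact permutation test over the arrays (two-sided). With 2 arrays a group, that test cannot give a p below 0.333. Bmi1 over Pcgf2 was 0.08 and -0.37 with GSK126, against -0.66 and -0.39 with DMSO. The treated ratios were the higher ones, GSK126 replicate 2 by only a small margin, and the difference was 0.38 (exact permutation p = 0.333, 0.500 after adjustment over the 3 pairs). Without GSK126 replicate 1 the difference was 0.16, and without GSK126 replicate 2 it was 0.61.

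Cbx7 over Cbx8 was -0.20 and -0.33 with GSK126, against -0.38 and -0.39 with DMSO. These groups also did not overlap, and the difference was 0.12 (exact permutation p = 0.333, adjusted 0.500). It was 0.05 without GSK126 replicate 1. Both genes of this pair had signals near the dim limit. Ring1 over Rnf2 was -2.09 and -2.26 with GSK126, against -2.18 and -2.35 with DMSO. These groups overlapped, with a difference of 0.09 (exact permutation p = 0.667, adjusted 0.667), and without DMSO replicate 2 it was near 0. A ratio of Cbx6 over Cbx2 could not be formed without a value for Cbx6.

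**Figure D3:**
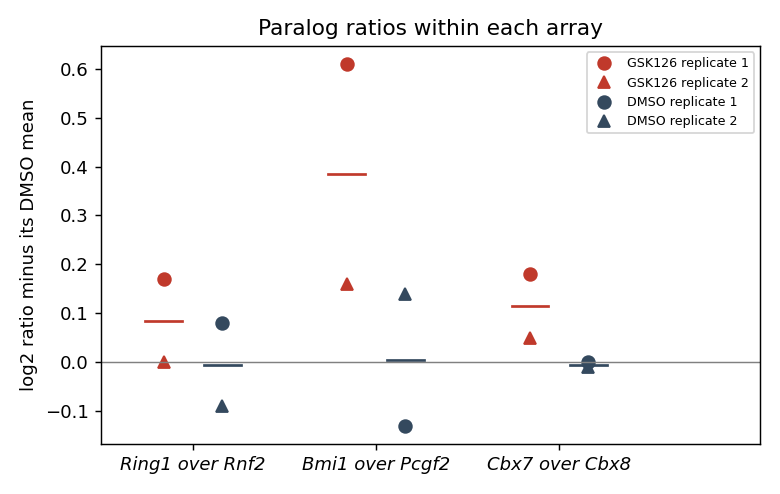
Log2 ratio of each paralog pair (x axis) within an array, drawn relative to the pair's DMSO mean (y axis). Red points are GSK126 arrays, dark points DMSO arrays, circles replicate 1, triangles replicate 2, and short bars group means (n = 2). The treated points of Bmi1 over Pcgf2 and of Cbx7 over Cbx8 lie above their vehicle points, and those of Ring1 over Rnf2 overlap them.

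Beyond the listed members, 5 other canonical PRC1 genes were measured and 0 passed the threshold in limma, with 1 lower and 0 higher at an unadjusted p under 0.05. That gene was Phc2, a paralog of Phc1. Phc2 had 6.87 and 6.74 with GSK126, against 7.21 and 7.01 with DMSO, a change of -0.31 (95% interval -0.58 to -0.04, adjusted p = 0.421 in limma). Phc3, the third polyhomeotic gene, had 7.81 and 7.46 with GSK126, against 7.79 and 7.48 with DMSO, and its groups overlapped. Phc1 and Phc2 thus both had lower treated values, and Phc3 did not. Scml2, dim in DMSO, had a change of 0.29 (adjusted p = 0.572), Scmh1 of 0.06 and Scml4 of -0.01. Beside the counts of this list and of those below, 0.433% of all genes passed the threshold in limma. At an unadjusted p under 0.05 in limma, 4.64% of all genes were higher and 5.93% lower.

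Of the variant PRC1 genes, 18 of 21 were measured and 0 passed the threshold in limma, and at an unadjusted p under 0.05 stood 1 higher and 2 lower. Their median change was -0.09. Auts2, which joins complexes built on PCGF3 or PCGF5, had 7.01 and 6.68 with GSK126, against 7.44 and 7.21 with DMSO. Its groups did not overlap, and the change was -0.48 (95% interval -0.81 to -0.15, adjusted p = 0.301 in limma). It was -0.31 without GSK126 replicate 2 and -0.65 without GSK126 replicate 1. Pcgf5 was on the other side, with 8.37 and 8.23 with GSK126, against 7.90 and 8.13 with DMSO, a change of 0.28 (adjusted p = 0.425). Its paralog Pcgf3 had a change of -0.21 (adjusted p = 0.505). Without DMSO replicate 1 these changes were 0.17 for Pcgf5 and -0.13 for Pcgf3. E2f6, the DNA-binding partner of a PCGF6 complex, had a change of -0.25 (adjusted p = 0.436).

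Enzymes that remove ubiquitin from histone H2A, with their partners, had a median change of -0.12 over 10 genes, and 0 passed the threshold in limma, with 2 lower and 0 higher at an unadjusted p under 0.05. Those were Foxk1 (-0.31, adjusted p = 0.329), a forkhead factor that binds the deubiquitinase BAP1, and the H2A deubiquitinase gene Usp21 (-0.28, adjusted p = 0.390). Usp3 stood at -0.16 and Asxl1, the activating partner of BAP1, at -0.15.

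Chromodomain genes outside PRC1 had a median change of -0.23 over 5 genes, and 0 passed the threshold in limma, with 2 lower and 0 higher at an unadjusted p under 0.05. Cbx1, which encodes HP1 beta and reads methylated H3K9 in place of H3K27, had 7.68 and 7.64 with GSK126, against 8.01 and 7.96 with DMSO. The gap between its groups exceeded the replicate gaps. The change was -0.33 (95% interval -0.53 to -0.12, adjusted p = 0.267 in limma). Cbx5, encoding HP1 alpha, stood at -0.20 (adjusted p = 0.517), the chromodomain gene Cdyl2 at -0.32 (adjusted p = 0.464) and its relative Cdyl at -0.23 (adjusted p = 0.623). Single arrays moved these values. Cdyl2 stood at -0.15 without GSK126 replicate 2, and without DMSO replicate 2 both Cbx5 and Cdyl stood at -0.10.

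The PRC2 genes, whose product PRC1 reads, gave 0 of 11 past the threshold in limma, with 1 lower and 0 higher at an unadjusted p under 0.05 and a median of -0.08. Rbbp4, the histone-binding subunit that PRC2 shares with other complexes, was that gene (-0.28, adjusted p = 0.331), and the mean of its 2 probe sets gave -0.10 (adjusted p = 0.815). Ezh2 stood at -0.19, Eed at -0.14, Suz12 at -0.08 and the accessory subunit gene Aebp2 at 0.18. Without DMSO replicate 2 Eed stood at -0.04, and without GSK126 replicate 1 Aebp2 stood at 0.07. At the Ink4 locus, a classic PRC1 target, Cdkn2a had 5.49 and 5.33 with GSK126, against 5.36 and 5.38 with DMSO. Cdkn2b had 6.04 and 5.61 with GSK126, against 5.81 and 5.78 with DMSO. Groups overlapped for both, with changes of 0.04 (adjusted p = 0.964) and 0.03 (adjusted p = 0.978), and both signs turned with centred arrays. Both genes had low signals, by group mean below the fibroblast marker Col1a1 (5.93 with GSK126 and 6.06 with DMSO) and above the other fibroblast markers. Whether these signals exceed background was not tested, so no state of the locus is read from them.

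DNA replication genes are given beside these values because dividing cells express many chromatin genes. In limma 1 of 25 passed the threshold, and at an unadjusted p under 0.05 there were 16 lower and 0 higher. Over all genes 0.433% passed, and 5.93% were lower and 4.64% higher at that unadjusted p. The mean was lower with GSK126 for all 25 DNA replication genes that were measured. Their median change was -0.29, and 22 had groups that did not overlap, all lower with GSK126, against 21.8% of all genes. Cdc6, which loads the replicative helicase, fell by 0.62 on the log2 scale (adjusted p = 0.0455 in limma), a call that ended in 8 of the 12 alternatives. Its adjusted p in limma was 0.210 to 0.473 in the 4 fits without 1 array, where the change was -0.67 to -0.57. It was 0.271 without the intensity trend, 0.440 with every probe set tested, 0.0507 after quantile normalization and 0.158 with the replicate block. Chaf1b (-0.40), Uhrf1 (-0.38) and Mcm7 (-0.44) did not pass. The mean log2 signal of the list was 8.35 and 8.32 in the GSK126 arrays, against 8.63 and 8.62 in the DMSO arrays. Their part in the values of Pcgf2, Phc1 and Cbx1 was not tested.

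**Figure D4:**
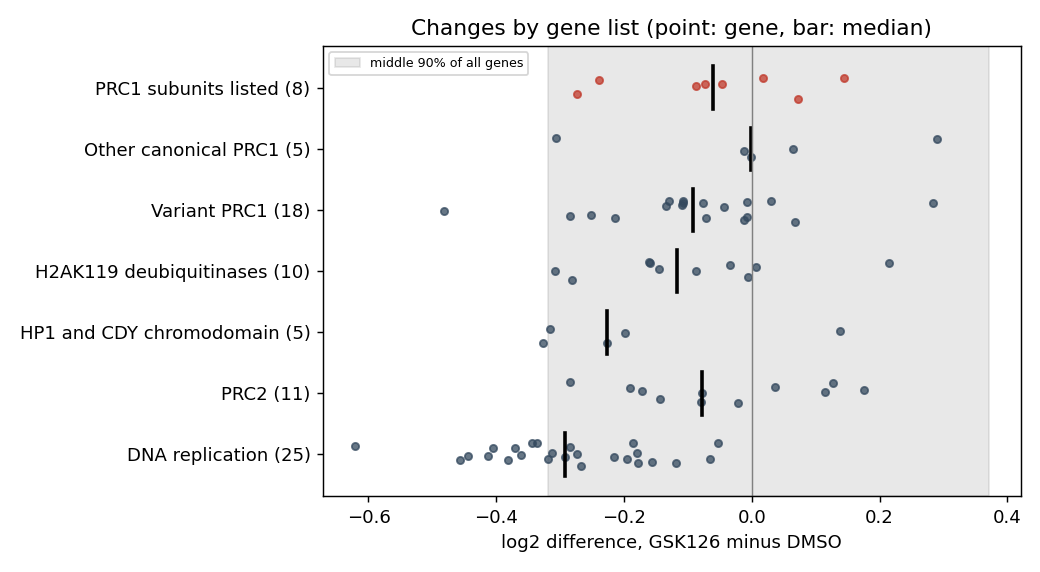
Log2 difference between GSK126 and DMSO (x axis) for each gene (points) of 7 lists (rows, number measured in brackets), with list medians as black bars. The grey band holds the middle 90% of all genes, from -0.32 to 0.37. All 8 measured PRC1 subunits (red) lie inside the band. Among the points below it are Auts2, Cbx1 and the DNA replication genes Cdc6, Mcm7, Chaf1b and Uhrf1. The DNA replication genes all lie below 0.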

How the data were processed

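Total RNA labelled with biotin was hybridised to Affymetrix mouse arrays, 2 with GSK126 and 2 with DMSO. The deposited values are log2 signals that the authors made with Expression Console (RMA, core-exon level), per the labels. Affymetrix Power Tools is the program listed in the submitters' processing notes. The sources used here give no genome build. Centring was left as deposited, and array medians were 4.79 and 4.78 for GSK126 and 4.74 and 4.73 for DMSO. The number of arrays limits the precision.

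Of 41345 probe sets, 23521 had 1 symbol in the platform annotation, 1814 several and 16010 none, and genes were named only from the first kind. RefSeq Entrez identifiers matched 23328 of these. Each gene is its probe set of highest mean. All measured members had 1 probe set. Differences were fitted with limma 3.58.1 (R 4.3.3) with an intensity trend, 2 residual and 5.57 prior degrees of freedom. The code was run on simulated data with variances drawn from limma's own fitted prior and planted changes larger than those of the members. That run checks the code and does not show how well changes as small as the members' are found. The members, lists and alternatives were chosen with earlier results of these data known. The text names every member and, of each other list, up to 4 genes with the smallest p, plus fixed PRC1, PRC2 and Ink4 genes. Genes were not ranked by likeness to a member, since 4 arrays are too few. Same-numbered replicates did not deviate together (correlation -0.06), so the numbers were not taken as pairs. Scan dates were not used here.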

Additional observations from a re-analysis of the deposited data

How the results depend on the processing

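The count of PRC1 members past the threshold was 0 of 8 in limma under each alternative that kept every array. With arrays centred on their medians, 2 of 8 members stood at an unadjusted p under 0.05 in limma (0 higher and 2 lower). In that fit 2936 of 22180 genes stood there, 694 higher and 2242 lower. The other alternatives that kept every array gave 0 members by that measure. No member's 95% interval reached a log2 change of 1 in any of the 12 alternatives. The widest bounds were -0.75 (Phc1, without GSK126 replicate 2) and 0.87 (Bmi1, without DMSO replicate 2). Leaving out single arrays gave -0.01 to 0.16 for Cbx7, -0.12 to 0.03 for Cbx8, -0.18 to 0.47 for Bmi1, -0.03 to 0.06 for Ring1 and -0.17 to 0.03 for Rnf2, so the sign of these 5 members was not settled. The same held for Scmh1 (-0.01 to 0.14), Scml4 (-0.11 to 0.09), Phc3 (-0.17 to 0.17), Suz12 (-0.19 to 0.03), Cdkn2a (-0.04 to 0.12) and Cdkn2b (-0.19 to 0.25). Centred arrays gave -0.04 for Ring1, -0.01 for Cdkn2a and -0.02 for Cdkn2b, and quantile normalization gave 0.04 for Phc3 and -0.0032 for Cdkn2a. Cbx2, Pcgf2 and Phc1 kept their sign throughout. The balance of Bmi1 over Pcgf2 and of Cbx7 over Cbx8 kept its sign under the 6 alternatives run on it, while that of Ring1 over Rnf2 was 0.01 without GSK126 replicate 1 and about 0 without DMSO replicate 2.

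The count over all genes, 96, was 0 in limma without the intensity trend (0 higher, 0 lower, 1964 genes at an unadjusted p under 0.05) and 0 with every probe set tested (0 higher, 0 lower, 2921 probe sets at an unadjusted p under 0.05). It was 149 without dim genes (66 lower), and centred arrays gave 62 lower against 55 higher. The replicate block gave 10 (8 higher, 2 lower) and called no member. Leaving out single arrays gave 0 to 4 in limma, with 0 to 3 higher and 0 to 1 lower and at least 1771 genes at an unadjusted p under 0.05. The causes were not tested.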
